A study of Mus musculus with 2 samples.

Results

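Of 115658 DNase-seq peaks that 2 libraries of mouse embryonic limb shared on chromosomes 1 to 19, 1713 were centred in protein-coding sequence, which is 1.48% of them (Wilson 95% interval 1.41% to 1.55%). These coding-exon peaks were chosen by position alone. The 150 bp peaks called in each library were merged where they overlapped by at least 1 bp, and a merged peak was kept if its centre lay in the coding part of an exon of a protein-coding gene (GENCODE M21, mm10) and over 1 kb from every protein-coding transcription start. Another 1638 shared peaks were centred in coding sequence within 1 kb of a start and were counted with the promoters. The deposited signal played no part in the choice. The rule named the position of the centre and not of the whole peak: a median of 90% of a peak's bases were coding, and 735 peaks (42.9%) lay wholly in coding sequence.

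Both libraries came from limb buds of strain B6NCrl embryos at 11.5 days, with males and females pooled, and no group was treated or mutated. The labels call them biological replicates, with 1 technical replicate and a tissue sample of its own each, under a single donor entry. DNase-seq finds accessible chromatin from the places where the enzyme DNase I has cut. The study had a single group, so coding-exon peaks were compared with other sequence and other peaks within the same 2 libraries, and no test between groups was possible. In bulk tissue a region open in few cells and a region weakly open in many cannot be told apart.

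DNA of coding exons is read as codons, yet it can also be bound by transcription factors and act as an enhancer, sometimes of a neighbouring gene. Coding exons of Hdac9 and Dync1i1 are known to hold enhancers active in the developing limb, which act on the neighbouring genes Twist1 and Dlx5 and Dlx6. CTCF, a zinc finger protein that anchors chromatin loops, is a factor that can bind within genes as well as between them. Stretches rich in the dinucleotide CG, which are often unmethylated and open, usually lie at promoters but also extend into exons.

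The sequences of 6 coding-exon peaks show the kinds of DNA described here. They are the plus strand of mm10, read from the RefSeq copy of that assembly. Cacna1a (a subunit of a neuronal calcium channel) and Atn1 (a transcriptional corepressor) held coding-exon peaks among the 3 strongest. In both sequences capitals mark CG dinucleotides.

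Cacna1a chr8:84639536-84639685, gene on the plus strand: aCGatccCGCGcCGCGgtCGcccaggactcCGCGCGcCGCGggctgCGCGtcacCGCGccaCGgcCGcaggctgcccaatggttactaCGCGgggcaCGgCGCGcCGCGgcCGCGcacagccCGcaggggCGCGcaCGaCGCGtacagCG

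Atn1 chr6:124745596-124745745, gene on the minus strand: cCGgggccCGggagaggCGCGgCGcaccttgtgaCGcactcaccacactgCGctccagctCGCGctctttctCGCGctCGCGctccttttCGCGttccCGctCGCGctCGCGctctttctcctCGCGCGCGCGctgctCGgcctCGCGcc

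The next 3 are the strongest coding-exon peaks with a CTCF site, and capitals mark the match to the CTCF consensus. Synpo2l encodes an actin-associated protein of muscle, Rasip1 a Ras-interacting protein of endothelium, and Ptger1 a receptor for prostaglandin E2.

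Synpo2l chr14:20661056-20661225, gene on the minus strand: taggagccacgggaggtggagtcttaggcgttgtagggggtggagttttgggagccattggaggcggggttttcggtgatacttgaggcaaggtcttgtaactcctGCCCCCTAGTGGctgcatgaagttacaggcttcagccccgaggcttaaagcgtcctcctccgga

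Rasip1 chr7:45628876-45629045, gene on the plus strand: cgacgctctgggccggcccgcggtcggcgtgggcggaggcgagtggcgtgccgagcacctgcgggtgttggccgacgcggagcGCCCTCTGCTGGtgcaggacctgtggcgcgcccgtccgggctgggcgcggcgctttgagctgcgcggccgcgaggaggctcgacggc

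Ptger1 chr8:83668756-83668925, gene on the plus strand: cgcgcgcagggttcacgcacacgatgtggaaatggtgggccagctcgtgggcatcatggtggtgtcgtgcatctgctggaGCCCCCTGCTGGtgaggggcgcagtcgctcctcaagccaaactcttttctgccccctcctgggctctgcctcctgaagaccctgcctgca

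The last is the coding-exon peak of Hdac9, a histone deacetylase, in which capitals mark the coding bases of the exon and small letters the intron beside it.

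Hdac9 chr12:34215436-34215625, gene on the minus strand: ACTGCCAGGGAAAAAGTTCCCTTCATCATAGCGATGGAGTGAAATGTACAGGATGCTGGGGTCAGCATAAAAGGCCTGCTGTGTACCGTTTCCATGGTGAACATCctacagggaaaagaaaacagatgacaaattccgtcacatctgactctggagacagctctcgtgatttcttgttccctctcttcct

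The sequences differed in composition. The Cacna1a peak had 33 CG pairs in 150 bp and a GC content of 80%, and the Atn1 peak had 28 CG pairs in 150 bp. The Hdac9 peak had 4 CG pairs in 190 bp and a GC content of 46.8%.

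Per base, coding sequence held more shared peaks than the introns and the sequence between genes. Over 28.3 Mb of coding sequence more than 1 kb from starts there were 60.5 peaks per Mb (Poisson 95% interval 57.7 to 63.5), against 43.1 per Mb in introns (42.7 to 43.6) and 33.1 per Mb between genes (32.8 to 33.4). The density was 1.59 times that of all sequence over 1 kb from starts, which was 38.1 per Mb. It was also above the 50.3 per Mb of 3' UTRs (47.8 to 52.9). Coding sequence lay below noncoding exons, at 66.4 per Mb (64.1 to 68.8), below 5' UTRs, at 139 per Mb (113 to 169), and far below promoters, at 436 per Mb. All intervals allow for counting error in the number of regions alone, and regions close together are not independent of each other.

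**Figure D1:**
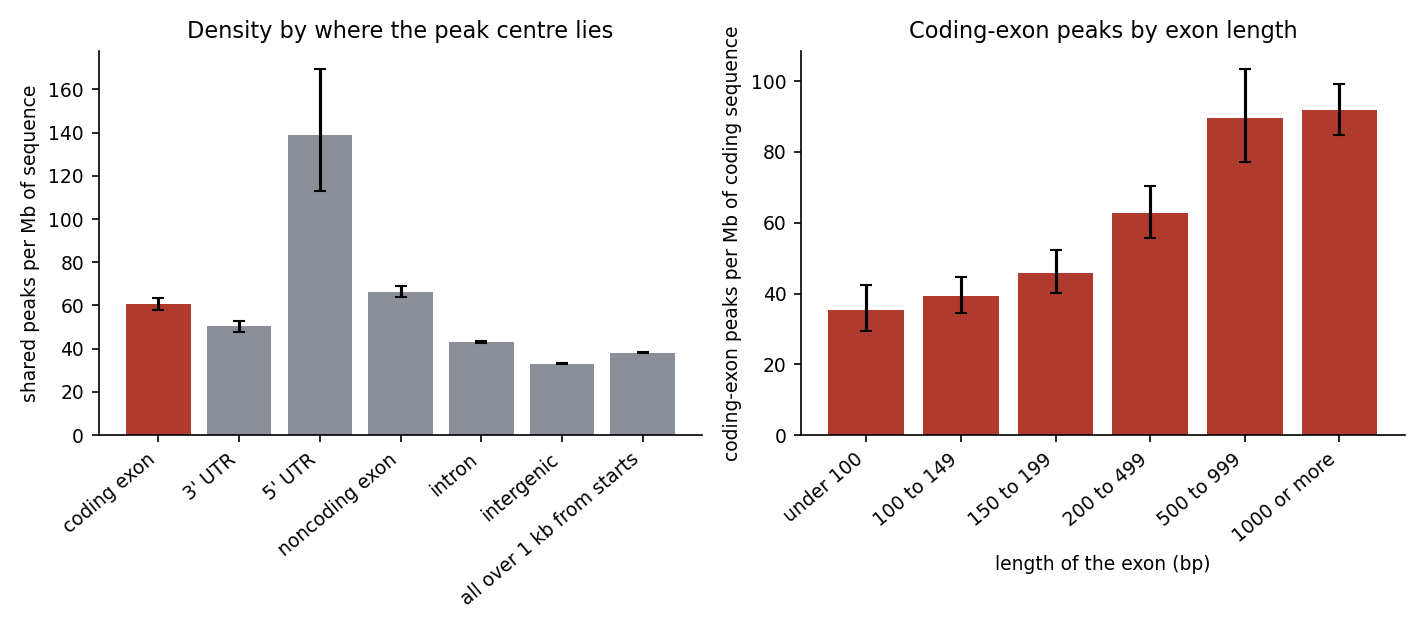
Shared peaks per Mb of sequence by where the peak centre lies (left) and coding-exon peaks per Mb of coding sequence by length of the exon (right), with Poisson 95% intervals as error bars. Coding exons, at 60.5 per Mb, stood above introns and intergenic sequence, and density increased with exon length to 91.8 per Mb in exons of 1000 bp or more.

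Coding-exon peaks were found again in the second library about as often as peaks in general, with a difference between the 2 directions. Replicate 1 held 2424 coding-exon peaks, of which 1762 (72.7%, Wilson interval 70.9% to 74.4%) overlapped a peak of replicate 2, against 69.9% of all its peaks. Replicate 2 held 2689, of which 1809 (67.3%, 65.5% to 69.0%) overlapped a peak of replicate 1, against 73.2% of all its peaks. Coding-exon peaks were thus above the background share in replicate 1 and below it in replicate 2. Weighted to the same signal, other peaks over 1 kb from starts overlapped in 72.0% of cases in replicate 1 and 75.7% in replicate 2.

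The excess of unshared coding-exon peaks lay in replicate 2. Coding-exon peaks were 2.01% of the peaks found in replicate 2 alone and 1.29% of those found in replicate 1 alone. Among all peaks of a library they were 1.65% in replicate 2 and 1.425% in replicate 1. Sharing moved with the deposited signal, the authors' own value per peak, whose scaling is not stated. In the lowest decile of signal 27.9% of coding-exon peaks of replicate 1 and 23.5% of those of replicate 2 overlapped, and in the highest decile 100% and 98.6%.

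Shared coding-exon peaks had a median signal of 54 in replicate 1 (range 10 to 133) and 49 in replicate 2 (range 5 to 137). Intron peaks had medians of 52 and 43, intergenic peaks 53 and 43, 3' UTR peaks 56 and 46, and promoter peaks 77 and 76, each in replicate 1 and then in replicate 2. To compare libraries, each value was turned into its percentile among all peaks of its library and the 2 percentiles were averaged. The median percentile was 61.6 for coding-exon peaks, 61.1 for 3' UTR peaks, 57.1 for intergenic peaks, 56.5 for intron peaks and 83.0 for promoter peaks. Their quartiles, 43.2 and 77.3, overlapped widely with those of introns, 37.3 and 74.7. The signals of the 2 libraries were correlated across the 1713 peaks (Spearman rho 0.890) about as they were across all shared peaks (0.913). This is a correlation across regions of the same 2 libraries.

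**Figure D2:**
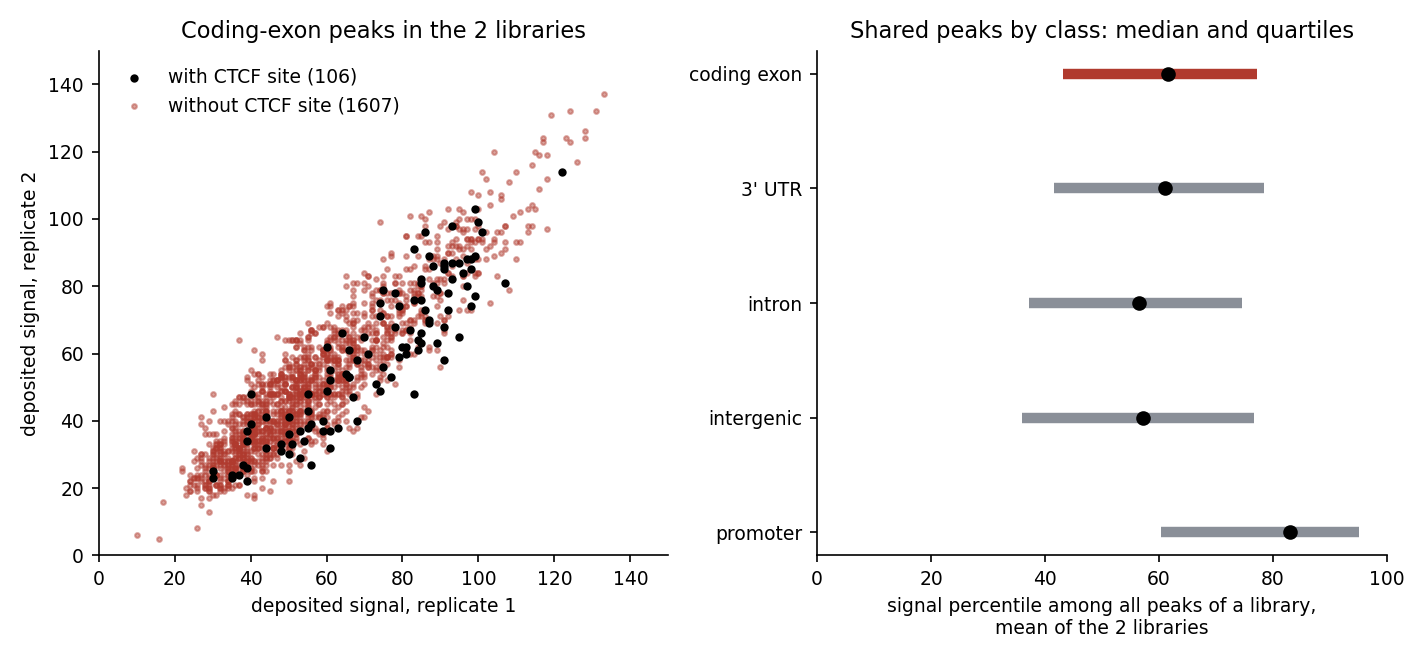
Deposited signal of the 1713 coding-exon peaks in replicate 1 (x axis) and replicate 2 (y axis), with the 106 peaks that hold a CTCF site in black (left), and the median (point) and quartiles (bar) of the signal percentile by class (right). Coding-exon peaks had a median percentile of 61.6, above introns at 56.5 and below promoters at 83.0, and most peaks with a CTCF site lay towards the replicate 1 side of the cloud.

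The strongest coding-exon peaks lay in genes of varied function. The peak of Atn1 (exon 6 of 10) had a signal of 133 in replicate 1 and 137 in replicate 2. That of Angptl6, an angiopoietin-like secreted protein, had 131 and 132 (exon 2 of 6), and the peak in the last exon of Cacna1a had 124 and 132. All 3 reached percentile 99.1 or above. The next were peaks of Sptbn4, a spectrin of axons, with 128 and 126, and of Zfp771, a zinc finger protein, with 128 and 124. The others among the strongest 10 lay in Kank3 (119 and 131), Rasip1 (123 and 124), Sft2d3 (124 and 123), Inpp5b, a lipid phosphatase (126 and 117), and Psmc2, a subunit of the proteasome (117 and 124). In each pair replicate 1 is given first, and each of these peaks was high in both libraries. Their distances to the nearest protein-coding start ran from 1083 bp (Sft2d3) to 23241 bp (Cacna1a). The Inpp5b, Atn1, Rasip1 and Kank3 peaks lay 167, 46, 86 and 206 bp from the annotated start of a noncoding transcript, in that order.

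Across all coding-exon peaks, 393 had another annotated start within 1 kb, which is 22.9% of them (21% to 25%), against 15.3% of the coding bases. The starts nearest to them were mostly of retained introns (162) and processed transcripts (106), then of antisense RNAs (64), and 284 of the 393 belonged to the host gene itself. These peaks had a median percentile of 64.7, against 60.6 for those farther from such starts, and 50.4% of them were CpG-rich, against 41.5%. The other 1320 peaks had a density of 55 per Mb of coding sequence away from every annotated start. Introns had 43.1 per Mb with peaks near such starts included.

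Long exons held more than their share. The length used was that of the longest exon holding the peak centre in a coding transcript, untranslated parts included. In exons of 500 bp or more there were 823 coding-exon peaks (48.0%), although these exons made up 31.9% of coding bases, and their density was 91.3 per Mb, against 46.1 per Mb in shorter exons. Density increased along the scale of length, with 35.4 per Mb under 100 bp (29.3 to 42.4), 45.9 at 150 bp to under 200 bp (40.1 to 52.3), 62.7 at 200 bp to under 500 bp (55.8 to 70.2) and 91.8 at 1000 bp or more (84.8 to 99.2).

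Density also moved with the distance to the nearest protein-coding start. It was 152 per Mb at 1 to 2 kb, 80.2 at 2 to 5 kb, 45.5 at 5 to 20 kb and 44.9 beyond 20 kb. The difference by exon length was seen on both sides of 5 kb. At 1 to 5 kb from a start, long exons had 164 peaks per Mb (150 to 180) and shorter ones 62.3 (55.2 to 70.2). Over 5 kb from a start, long exons had 54.8 per Mb (49.1 to 61.1) and shorter ones 41.4 (38.2 to 44.8). The intervals did not overlap in either zone, and the gap was narrower far from starts.

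By place in the transcript, single coding exons had 147 peaks per Mb, first coding exons 128, last coding exons 89.8 and internal coding exons 44.9. Internal exons nevertheless held 920 of the 1713 peaks (53.7%), because they make up 72.4% of coding bases. Centres within 30 bp of the edge of an internal exon were 33.6% (30.6% to 36.7%), against 40.1% of the bases of such exons, so centres were less frequent near exon edges than bases were. The longest exon with a peak was the last exon of Zdbf2, an imprinted gene, with 11936 bp. It held 2 peaks, of 24 in replicate 1 and 19 in replicate 2 and of 32 and 40. Both were below the median of coding-exon peaks in each library.

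The 1 kb limit passes through a continuous distribution. Just inside the set were peaks of Etv2, an ETS factor of early blood vessels, 1001 bp from a start (71 and 60), and of Edn3, an endothelin, at 1002 bp (57 and 48). Just outside were peaks of Fbxl8 (79 and 89) and of Chd7, a chromatin remodeller (60 and 76), both at 1000 bp. With a limit of 500 bp the density ratio of coding to all sequence was 1.83 and with 2 kb it was 1.42.

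Coding-exon peaks were rich in G and C and in CG dinucleotides. In their central 150 bp the median GC content was 60% and the median ratio of observed to expected CG was 0.587, against 50.7% and 0.327 in 182487 coding windows without a peak in either library. A centre was called CpG-rich if its GC content was at least 55% and its CG ratio at least 0.6. By that measure 746 coding-exon peaks (43.6%) were CpG-rich, against 4.96% of coding windows without a peak, 2.94% of intron peaks, 4.31% of intergenic peaks and 58.0% of promoter peaks. In this respect coding-exon peaks stood nearer to promoters than to the introns around them. Peaks of other exon classes over 1 kb from starts lay between introns and coding exons. Their CpG-rich shares were 33.7% in 5' UTRs, 14.2% in noncoding exons and 8.25% in 3' UTRs.

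The CpG-rich share followed exon length. It was 5.88% of peaks in exons under 100 bp (2.88% to 11.7%), 23.7% at 150 bp to under 200 bp, 60.2% at 500 bp to under 1000 bp and 66.1% at 1000 bp or more (62.3% to 69.7%). Coding windows without a peak in the same exon classes had 1.14%, 4.49%, 7.35% and 7.66%. In both sets the share was higher in longer exons, and it was higher in peaks than in windows in every exon class. CpG-rich peaks had median signals of 58 in replicate 1 and 57 in replicate 2, against 50 and 42 for the others. Their median distance to a start was 3339 bp, against 11437 bp.

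**Figure D3:**
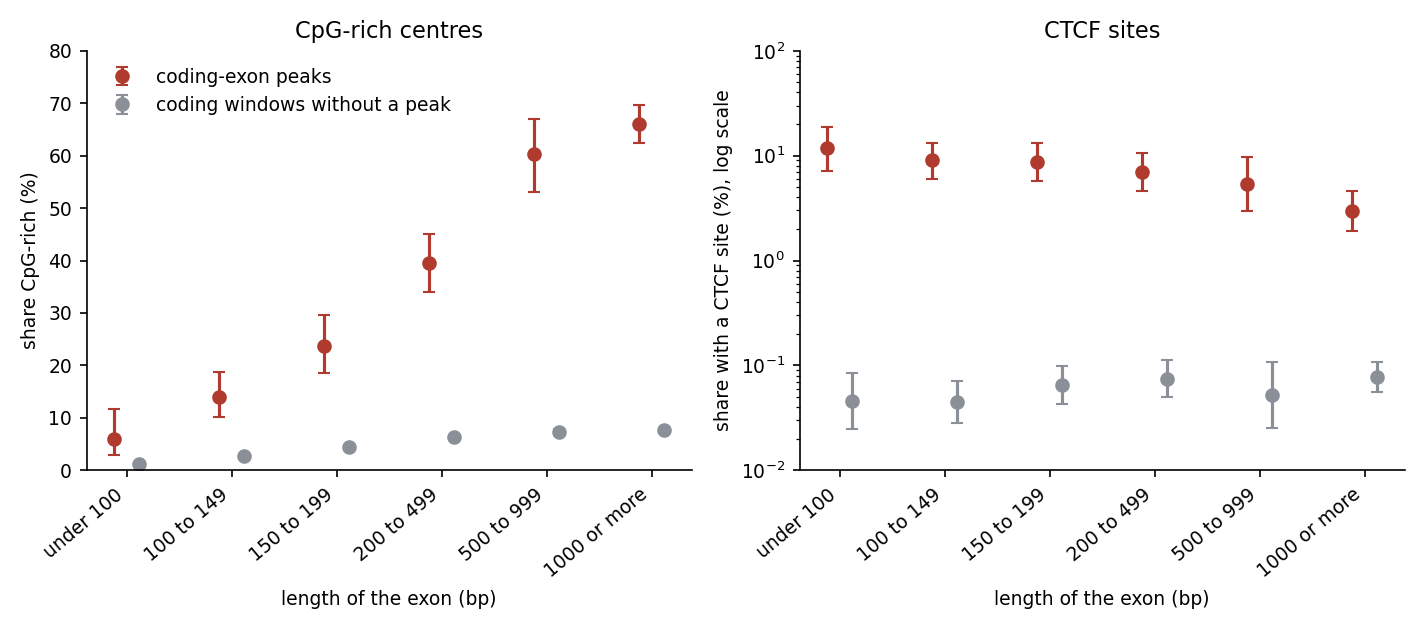
Share of CpG-rich centres (left) and of centres with a CTCF site (right, log scale) by length of the exon, for coding-exon peaks and for coding windows of 150 bp without a peak, with Wilson 95% intervals. The CpG-rich share of peaks increased to 66.1% in the longest exons while the CTCF share was highest, at 11.8%, in exons under 100 bp.

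CTCF sites marked a second, mostly separate set. Most coding-exon peaks, 879 of 1713 (51.3%), were neither CpG-rich nor held a CTCF site, and their median percentile was 53.5. A match to the CTCF consensus lay in the centre of 106 coding-exon peaks (6.19%, Wilson interval 5.14% to 7.43%), a share close to the 6.76% of other peaks over 1 kb from starts (ratio 0.916, 0.760 to 1.10). Of coding windows without a peak 113 of 182487 (0.0619%) had one, a ratio of 99.9 (77.0 to 130). Those windows leave out every peak of either library. Set against windows 500 bp to either side of the same peaks, of which 7 of 3426 (0.204%) had a match, the ratio was 30.3. The ratio to windows without a peak was 306 (168 to 559) at a GC content under 50%, 100 (70.0 to 144) at 50% to 60% and 38.9 (23.5 to 64.6) above, so it was above 1 in every GC class.

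Peaks with a CTCF site were strong and lay in short exons. Their median signal was 76 in replicate 1 and 61.5 in replicate 2, against 53 and 48 for coding-exon peaks without one, and their median percentile was 78.8, against 60.9. Their median exon length was 186 bp, against 481 bp. A site was found in 8.65% of peaks in exons under 500 bp and in 3.52% of those in longer exons. Only 18 peaks were both CpG-rich and carried a CTCF site, and those had a median percentile of 88.4. Of the 106 matches 88 (83.0%) lay wholly in coding sequence, and 43 (40.6%, 31.7% to 50.1%) ran on the strand of the gene.

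The Synpo2l peak printed above had signals of 122 in replicate 1 and 114 in replicate 2, the Rasip1 peak (exon 3 of 12) 99 and 103, and the Ptger1 peak (exon 2 of 3) 100 and 99. All 3 were strong in both libraries. The Rasip1 match stood in a centre of 79.3% GC, the Synpo2l match in one of 56.7%.

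Other words were searched on both strands of the same centres. A match is a description of these letters and not of a bound factor. Since coding-exon peaks are richer in G and C than the windows, each ratio is also given within classes of GC content (under 50%, 50% to 60%, and 60% or more) where it moved. Over all centres, words of factors known from CpG-rich promoters were more frequent than in coding windows without a peak. GGGGCGGGG, read by SP and KLF factors, was in 36 peaks (2.10%, against 0.265%, ratio 7.92, 5.67 to 11.1), all with a GC content of 60% or more, and within that class the ratio was 3.16 (2.25 to 4.45). GCGCATGCG of NRF1 was in 7 peaks (ratio 10.1, 4.65 to 21.8), all at 60% GC or more, where the ratio was 5.22 (2.31 to 11.8). Over all centres CCGGAAGT of ETS factors was in 13 peaks (1.90, 1.10 to 3.28) and AAGATGGCG of YY1 in 6 (2.55, 1.14 to 5.71). At 60% GC or more neither stood apart from the windows, with 1.42 for ETS (0.666 to 3.04) and 1.45 for YY1 (0.348 to 6.01). ETS had 1.07 (0.346 to 3.34) at 50% to 60% GC and 4.58 (1.47 to 14.2) on 3 peaks below 50%, and YY1 had 4.09 (1.52 to 11) on 4 peaks at 50% to 60%. Over other peaks away from starts the ratios were 1.56 for SP and KLF, 2.85 for NRF1, 2.37 for ETS and 1.90 for YY1, the last with an interval that included 1.

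A few long words also stood above the coding windows at small counts. The RFX consensus was in 4 peaks (ratio 12.9, 4.58 to 36.4) and the NFI consensus in 7 (3.95, 1.86 to 8.38). TTCAGCACC, a piece of the site of REST, which represses neuronal genes, was in 14 (2.61, 1.54 to 4.42). The strongest peaks with it were those of Gja10, a connexin (91 in replicate 1 and 70 in replicate 2), of Rapgef4, a cyclic AMP sensor (65 and 67), and of Mab21l2 (59 and 68). At 60% GC or more the ratios of REST, 1.61 (0.751 to 3.45), and NFI, 1.34 (0.421 to 4.28), had intervals that included 1. Under 50% REST had 5.055 (1.63 to 15.7) on 3 peaks and NFI 8.94 (1.23 to 65.0) on 1 peak. At 50% to 60% REST had 2.075 (0.776 to 5.55) on 4 peaks and NFI 4.35 (1.38 to 13.7) on 3. RFX had 16.7 (3.87 to 72.2) at 50% to 60% and 24.6 (3.47 to 174) at 60% or more, on 2 peaks each. Over other peaks away from starts the ratio of each of these 3 words had an interval that included 1.

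Of the E-boxes, which basic helix-loop-helix factors read, CAGCTG (E-box 1 in the plot of words) was in 333 peaks (19.4%, against 12.1%, ratio 1.60, 1.45 to 1.76), and CACGTG (E-box 3) in 85 (4.96%, against 2.41%, ratio 2.06, 1.67 to 2.54). The ratio of CAGCTG was 1.58 (1.135 to 2.20) under 50% GC, 1.32 (1.11 to 1.57) at 50% to 60% and 1.09 (0.961 to 1.24) at 60% or more. That of CACGTG was 1.80 (1.41 to 2.29) at 60% or more, but 0.921 (0.558 to 1.52) at 50% to 60% and 1.10 (0.415 to 2.91) below. CAGATG (E-box 2) was in 275 peaks, with a ratio of 1.14 (1.02 to 1.27) over windows and 0.796 (0.713 to 0.887) over other peaks. Its ratio over windows turned with GC content, from above 1 in the lower classes to below 1 in the highest: it was 2.07 (1.70 to 2.52) under 50% GC, 1.46 (1.25 to 1.71) at 50% to 60% and 0.739 (0.598 to 0.912) at 60% or more.

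Several words were less frequent over all centres, and at like GC content these differences were seen for some words and classes and not for others. TAATTA, the core read by homeodomain factors, was in 14 coding-exon peaks (0.817%), against 1.67% of coding windows and 5.52% of other peaks away from starts, ratios of 0.491 (0.291 to 0.828) and 0.148 (0.0878 to 0.250). Against coding windows of like GC the ratio was 0.936 (0.473 to 1.85) under 50% and turned to 3.03 (1.35 to 6.76) at 50% to 60%, on 8 and 6 peaks. AGATAAG of GATA factors was in 1 peak, against 1.37% of coding windows. It was in 0 of 257 peaks under 50% GC, against 2.00% of windows, and in 0 of 544 at 50% to 60%, against 0.980%. At 60% or more it was in 1 of 912, against 0.343%, a ratio of 0.319 (0.0445 to 2.29). ATCAAAG of TCF and LEF had a ratio of 0.529 over coding windows, ACAATGG of SOX factors 0.542 and TGACAG of MEIS 0.673, all with intervals below 1. Under 50% GC their ratios were 1.43 (0.872 to 2.33) for TCF and LEF, 1.04 (0.499 to 2.16) for SOX and 1.16 (0.845 to 1.58) for MEIS. At 50% to 60% SOX had 0.959 (0.533 to 1.72), MEIS 0.841 (0.664 to 1.07) and TCF and LEF 0.427 (0.178 to 1.02). At 60% or more SOX had 0.228 (0.0732 to 0.708) and MEIS 0.483 (0.361 to 0.646), both below 1, and TCF and LEF 0.785 (0.349 to 1.77). TGANTCA of AP-1 had 0.337 (0.218 to 0.522), and the control word ACTNAGT, with the same letters in another order, 0.639 (0.442 to 0.924). By GC class, from low to high, AP-1 had 0.355 (0.134 to 0.939), 0.543 (0.284 to 1.04) and 0.509 (0.242 to 1.07), of which only the first excluded 1. The control word had 0.865, 0.900 and 0.759, each with an interval that included 1. GGAATGT of TEAD (1.05, 0.757 to 1.45) and TGGGTGGTC of GLI, the effectors of hedgehog signalling (1.17, 0.376 to 3.65), were not distinguishable from coding windows over all centres. Under 50% GC the TEAD ratio was 2.03 (1.20 to 3.46), on 13 peaks.

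**Figure D4:**
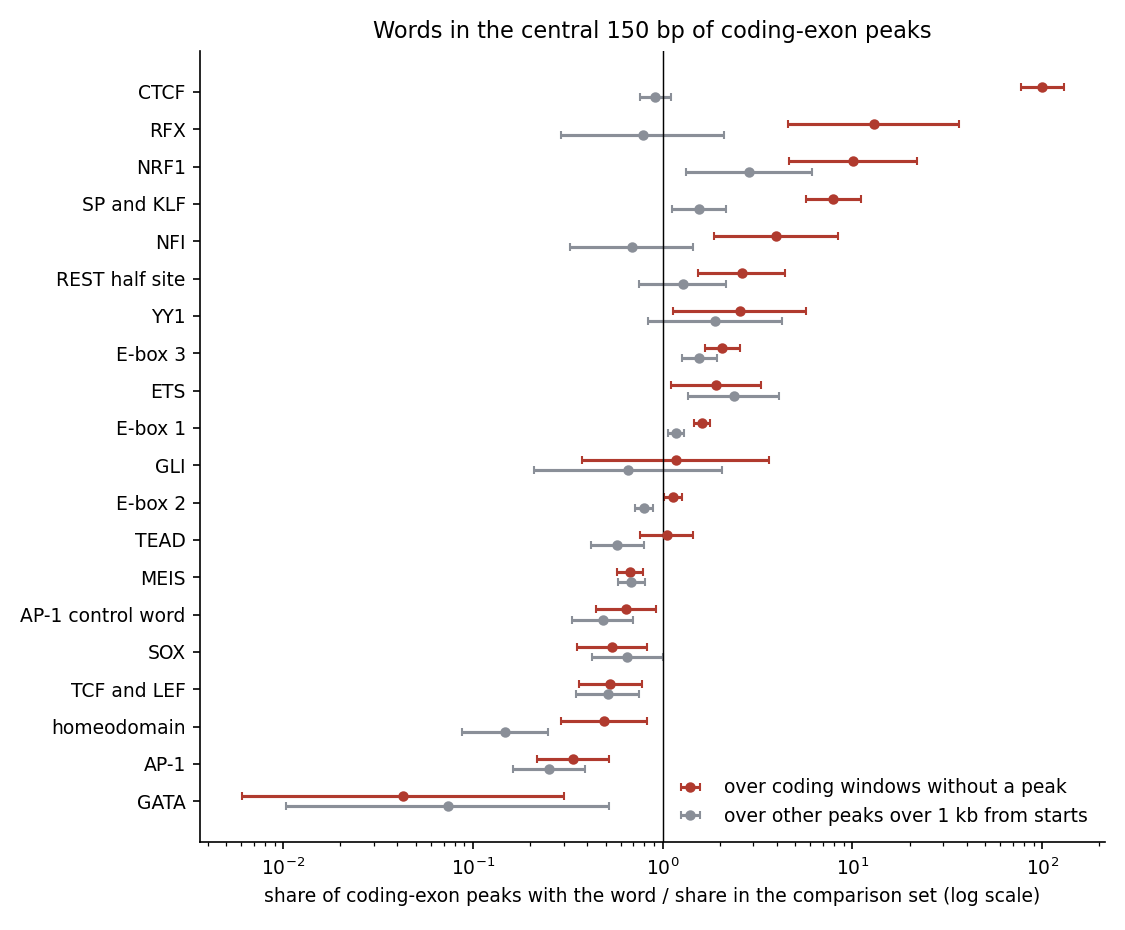
Ratio of the share of coding-exon peaks with each word to the share of coding windows without a peak (red) and of other shared peaks over 1 kb from starts (grey), on a log scale with 95% intervals. CTCF stood at 99.9 against windows and 0.916 against other peaks, while GATA, AP-1 and homeodomain words lay below 1 against both over all centres. At like GC content the homeodomain ratio to windows was 0.936 under 50% and 3.03 at 50% to 60%.

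The 1713 peaks lay in 1447 genes, of which 1229 had a single peak, 185 had 2 and 33 had 3 or more. The nearest protein-coding start belonged to the host gene for 1335 peaks (77.9%). Of 17939 genes with at least 150 coding bases over 1 kb from starts, 8.04% held a coding-exon peak. Such genes had more coding sequence, a median of 1707 bp against 1119 bp, and more often had a shared peak at a promoter, 81.3% (79.2% to 83.2%) against 74.0% (73.3% to 74.7%). Another shared peak lay within 10 kb of 82.8% of coding-exon peaks, against 74.3% of intron peaks and 72.1% of intergenic peaks.

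Genes with the most peaks mostly had them in 1 long exon. Tchh, which encodes trichohyalin of the hair follicle, had 7, all in an exon of 5685 bp, with signals of 30 to 81 in replicate 1 and 42 to 95 in replicate 2. Pcdh10, a protocadherin, had 6 in its first exon of 3459 bp, of 37 to 52 and 32 to 50. AI464131 also had 6, of 35 to 65 and 34 to 51. Prr36, a proline-rich protein, had 5 in an exon of 2196 bp. These were moderate peaks close to one another. Sptbn4 and Cacna1a had 4 each, spread over 3 and 4 exons, and their strongest peaks are given above. Rasip1, the Wnt receptor gene Fzd8 and Tril, a partner of Toll-like receptors, had 3 each, with mean percentiles of 88.3, 83.4 and 81.2.

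Evx2 is a homeobox gene at the end of the HoxD cluster and belongs to the list of Hox and Dlx genes below. It had 4 coding-exon peaks in only 998 bp of coding sequence over 1 kb from starts. Replicate 1 gave them signals of 57, 66, 50 and 56, and replicate 2 gave 66, 65, 47 and 48. The 3 first named were in its last exon and the other in the exon before it. Their centres had a GC content of 62.7% to 80.7%.

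In all 15 gene lists the share of genes with a coding-exon peak was above the 8.04% of all genes. It ran from 10% of erythroid to 33.3% of neural genes, but in most lists the interval included 8.04%. Those were the Hox and Dlx, cartilage and bone, ectoderm and ridge, erythroid, white blood cell, liver, germ cell, housekeeping and chromatin regulator lists. The limb mesenchyme transcription factors had a coding-exon peak in 10 of 37 genes (27.0%, 15.4% to 43.0%). The strongest was in the last exon of Shox2, which patterns the proximal limb, with 100 in replicate 1 and 94 in replicate 2. Lhx9, of limb outgrowth, had 2, at 50 and 48 in the last exon and at 74 and 76 in exon 3 of 5. Irx3, a homeobox gene of proximal and anterior limb, had 2, at 47 and 52 and at 32 and 30. Per Mb of coding sequence this list had 218 peaks, against 60.1 for all genes. Hox and Dlx genes had 572 per Mb, neural genes 382 and the ectoderm and ridge list 241, and the remaining lists were lower. These densities were not matched for distance to a start. Members of the limb mesenchyme list had a promoter peak in 37 of 37 cases, against 74.6% of all genes. Housekeeping genes (15 of 15) and chromatin and transcription regulators (25 of 25) also all had one.

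Among limb patterning signals 7 of 35 genes (20%) had a peak. Dusp6, a phosphatase induced by FGF signalling, had 2, at 69 and 58 and at 45 and 40 in replicate 1 and replicate 2. Ptch1, the hedgehog receptor, also had 2, at 57 and 44 in exon 18 and at 70 and 57 in exon 17 of 23. Bmpr1b, a BMP receptor, had 1 of 89 and 69 in exon 6 of 11, with its centre 68522 bp from the nearest protein-coding start. In that list the peaks lay in receptors and feedback genes as well as in the ligands Bmp2, Bmp4 and Fgf8. Fgf8, the ridge signal, had 72 and 77, Bmp4 had 62 and 68, and Bmp2 had 50 and 57.

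Hox and Dlx genes had a peak in 7 of 46 genes (15.2%). Hoxd10 had 90 in replicate 1 and 71 in replicate 2, and Hoxb2 had 2 peaks of 77 and 71 and of 70 and 72, all in last exons. Most coding sequence of these small genes lies within 1 kb of a start, which leaves a median of 305 bp, and the density was 572 per Mb. Of the ectoderm and ridge list 3 of 20 genes had a peak (15.0%), among them the zinc finger factors Sp8 and Sp6. Sp8, which maintains the apical ectodermal ridge, the signalling centre at the limb tip, had 3, of 66, 43 and 46 in replicate 1 and 74, 60 and 52 in replicate 2. Sp6 had 2, of 78 and 93 in replicate 1 and 51 and 87 in replicate 2.

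Cartilage and bone genes had 4 of 24 (16.7%). Among them were Sox9, the regulator of cartilage, with 45 in replicate 1 and 52 in replicate 2 and with 70 and 58, Sp7 of bone (65 and 63) and Col9a2 (43 and 45). Collagen and other matrix genes had 7 of 29 (24.1%), but they are long, with a median of 5022 coding bases, and their 59.0 peaks per Mb were close to the 60.1 of all genes. Fbn2, a fibrillin, had peaks of 55 and 45 and of 87 and 69, and Col6a3 of 72 and 66 and of 87 and 88. Muscle genes had 4 of 19 (21%) and 29.7 per Mb, chromatin and transcription regulators 3 of 25 (12%) and 18.7 per Mb, and housekeeping genes 2 of 15 (13.3%).

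Lists of other cell types had peaks too. Neural genes had 5 of 15 (33.3%, 15.2% to 58.3%), with Neurod1 at 97 and 92 and Nkx2-2 at 93 and 83 and at 52 and 51, in replicate 1 and replicate 2. Pax6 had 3 weak peaks, of 29 to 36 and 26 to 36. Endothelial genes had 4 of 17 (23.5%), white blood cell genes 2 of 15 (13.3%), liver genes 2 of 12 (16.7%) and germ cell genes 2 of 13 (15.4%), against 8.04% of all genes. Erythroid genes had 1 of 10 (10%), Klf1, with 93 and 92 and with 74 and 99. Spi1 of white blood cells had 106 and 107 and Alb of liver 73 and 64. The tissue label was set beside promoter peaks of defining markers. A shared promoter peak was seen in 74.6% of all genes, so counts of so few markers cannot settle the label. All 9 limb mesenchyme, all 4 ectoderm and all 4 neural markers had one. So did 2 of 4 muscle, 1 of 4 endothelial, 1 of 3 erythroid, 0 of 4 white blood cell and 0 of 4 liver markers. A coding-exon peak was thus seen in genes of lists whose markers lacked a promoter peak. The lists hold few genes, and with intervals this wide their order is not established.

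Of the 3 genes whose coding exons are known to hold enhancers, Hdac9 had 1 coding-exon peak. It lay in exon 19 of 25 (the sequence printed above), with 85 in replicate 1 and 81 in replicate 2, at the mean percentile of 86.7. It was 221776 bp from the nearest protein-coding start, and 55.3% of its bases were coding. It stood in a gene with 58 shared peaks, of which 51 were in introns. Of the 58, 3 touched coding sequence. Besides the coding-exon peak these were 1 centred in an intron (92 and 73) and 1 at a promoter (33 and 30). Intron peaks of higher mean percentile lay in the same gene, among them those of 111 and 108 (percentile 95.4) and of 102 and 78 (89.7). The latter was below the coding-exon peak in replicate 2.

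Dync1i1, a dynein intermediate chain, had 25 shared peaks and none in or touching coding sequence. Its strongest, chr6:6005816-6006005 (mm10), had 112 in replicate 1 and 105 in replicate 2 and lay in an intron 264 bp from a coding exon. Hoxa2, whose coding sequence is known to hold a hindbrain enhancer, had a single peak of 54 and 76, which touched coding sequence. The centre of that peak lay outside the coding segments and within 1 kb of the start, so it was no member.

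**Figure D5:**
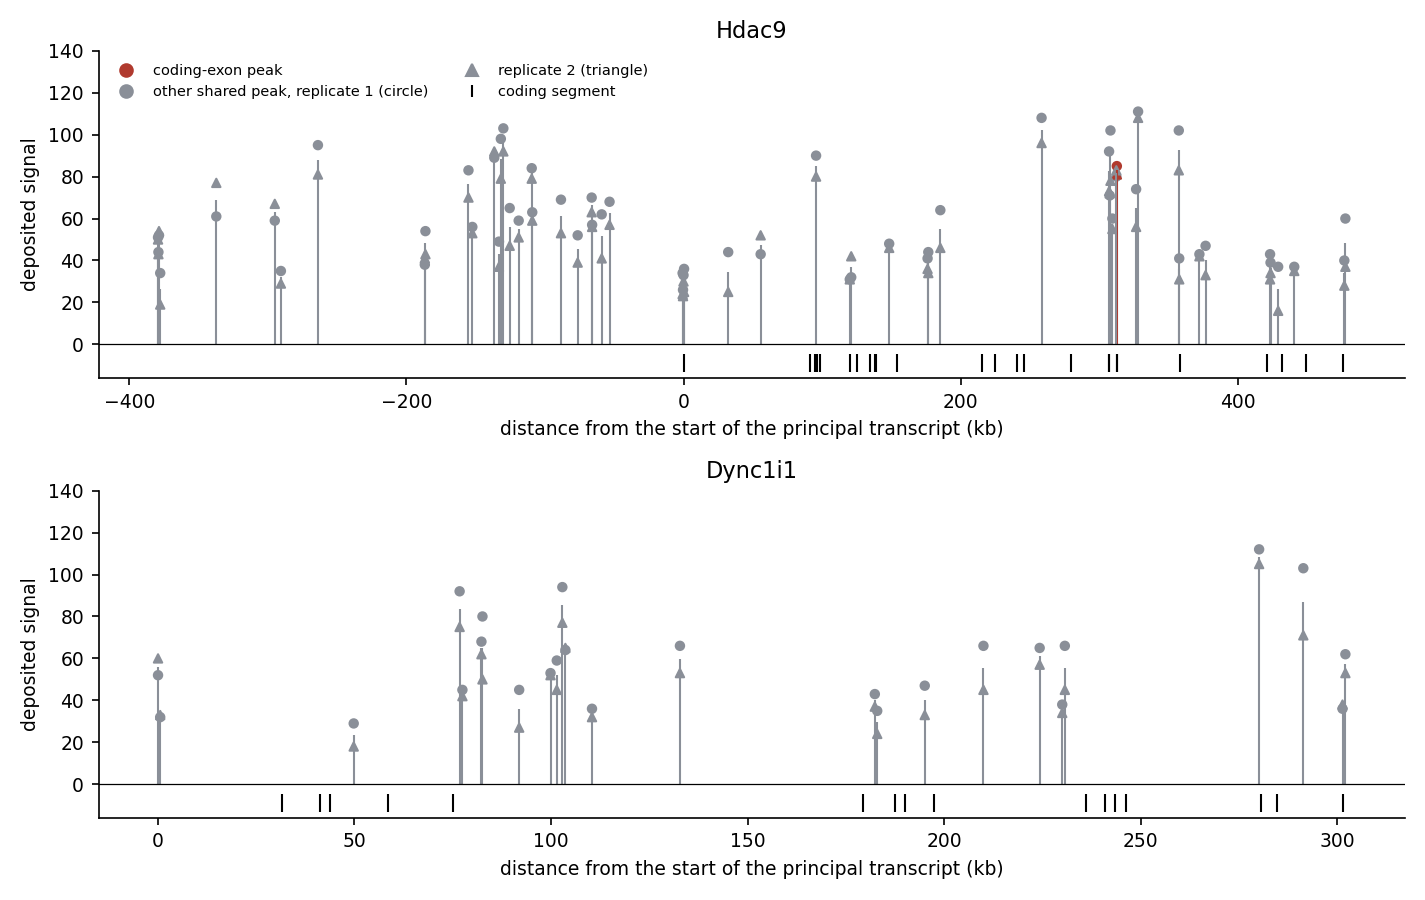
Deposited signal of every shared peak in Hdac9 (above) and Dync1i1 (below) by distance from the start of the principal transcript in kb, with circles for replicate 1, triangles for replicate 2, a line to their mean, and ticks below the axis for coding segments. The only coding-exon peak, in red, lies in Hdac9 with 85 and 81, and the strongest Dync1i1 peak, with 112 and 105, lies beside a coding segment.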

How the data were processed

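DNase-seq of limb from 11.5 day B6NCrl embryos was deposited for 2 biological replicates, and regions were called per library on mm10, per the labels and file headers. Sources used here do not give the aligner or caller. The deposited peak lists hold 150 bp intervals with a signal value per peak (2 to 149 on chromosomes 1 to 19), the authors' own value, with no scaling stated in those sources. The deposited hotspot lists hold a −log10 q per interval with a ceiling of 100, used only to describe. No read counts were used, so depth is unknown.

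Peaks were intersected with NumPy, merged, and placed by their centre on GENCODE M21, with 20807 protein-coding genes and 52092 starts on chromosomes 1 to 19. Coding sequence came from any coding transcript of a protein-coding gene, and starts from its protein-coding transcripts. Exon length, GC content and 20 words were read in the central 150 bp of peaks and in coding windows of 150 bp that overlapped no peak of either library. The CTCF, NFI and RFX consensus sites are given by name only. Words can overlap one another and each was counted on its own. Intervals are 95% Wilson, Poisson or log-ratio intervals.

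The steps were tested on simulated data. The coding-exon peaks, the 15 gene lists (354 entries) and the words were chosen with earlier results of these data known. Genes were named by a rule: Hdac9, Dync1i1 and Hoxa2, the 10 genes with most coding-exon peaks, the 10 strongest peaks, up to 3 genes a list, the 2 peaks on each side of the 1 kb limit, 3 peaks each with a CTCF and a REST site, and the longest exon with a peak. The second peak of that exon was added after its values were seen. Bmp2, Bmp4 and Fgf8 fall outside it and were named after their values were seen. For 1 gene named by this rule no result is given here. Alternatives changed the overlap, signal threshold, window, transcripts and background, and left out each replicate. Python 3.11.15, NumPy 2.4.6, pandas 2.3.3, SciPy 1.17.1 and Matplotlib 3.10.9 were used.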

Additional observations from a re-analysis of the deposited data

How the results depend on the processing

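No paired analysis was possible because the study has a single group. The number of coding-exon peaks was 993 with only peaks above the median signal of their library and 2996 with any base in coding sequence, and from 2424 to 2689 with a library left out, where peaks need not be shared. Without replicate 1 it exceeded the 1713 by over 1.5 times. The density ratio was 1.80 above the median signal, 1.83 with a window of 500 bp and 1.42 with 2 kb, and 1.51 to 1.72 with a library left out. The median percentile was 63.0 under a stricter overlap, set by the length of the shorter peak, and 50.4 to 52.1 with a library left out, since peaks found once are weaker. The share in exons of 500 bp or more was 46.3% with that overlap, 52.0% above the median signal, 41.8% with 2 kb and 47.6% to 49.0% with a library left out. Median GC content was 58.7% over a wider central window, 62.7% above the median signal, 59.3% with 2 kb and 59.3% with either library left out. The share near another start was 16.5% within 500 bp, 25% above the median signal, 21.3% with 2 kb and 21.9% to 22.1% with a library left out. The CTCF ratio was 30.3 against flanks, 125 above the median signal, 111 with 2 kb and 67.9 to 74.6 with a library left out. Overlap between libraries, 70.0% on average of both directions, was 62.1% with the stricter overlap and 78.8% above the median signal. The density ratio and the CTCF ratio stayed above 1 under every alternative run for them. The comparison values of the other results (percentiles of other classes, coding bases near other starts, overlap of all peaks) were not recomputed under the alternatives. Dropping peaks with a decimal point in the deposited signal, chosen after seeing the data, gave 1690 peaks, and using transcripts of the protein-coding type only, also chosen then, gave 1707. Apart from changes that follow from an alternative's construction, the cause was not tested. Depth is unknown, so peaks missing from a library cannot be told apart from peaks not detected at its depth.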
